A study of Rattus norvegicus with 4 samples.

Results

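Collagens are the fibres and sheets of the extracellular matrix, and they are described here by the ribosome footprints on their messenger RNAs in rat myocardial cells, with and without knockdown of the translation initiation factor subunit eIF3m. The members were all rows of the count tables whose gene symbol reads Col, a number, a and a number, which gave 44 of 31038 rows. Of these, 11 code for fibrillar chains, 6 for basement membrane chains, 6 for beaded-filament chains, 9 for FACIT chains (which bind to the surface of fibrils), 3 for chains of the basement membrane zone, 3 for short-chain network formers, 4 for transmembrane chains and 2 for other collagens. The si3m group had 2 libraries from cells given an siRNA against eIF3m, and the siNT group had 2 libraries from cells given a control siRNA. All were cultured with fetal bovine serum, and the labels call the cells NRVM, which usually stands for neonatal rat ventricular myocytes, while their growth protocol names an embryonic source. Ribosomes had been halted with cycloheximide and collected as monosomes and polysomes. The labels do not state whether libraries of a group are from separate cultures. Every p therefore measures only the spread between these libraries, which may be technical. Abundance is given as CPM (a count divided by its library's size, which TMM corrects for composition, on a common scale). RNA levels were not analysed here, so a footprint change cannot be split into more messenger RNA and more ribosomes on each.

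A collagen molecule is a triple helix of 3 chains, each a long run of short repeats that begin with glycine. Chains are made on the endoplasmic reticulum, hydroxylated and glycosylated there, folded with the help of the chaperone Hsp47 (gene Serpinh1), exported and trimmed, and then crosslinked outside the cell. Fibrillar types I and III carry the load in the heart wall and are made chiefly by fibroblasts. Type V regulates the width of the fibrils, type IV builds the basement membrane around cells, and type VI forms beaded filaments between the basement membrane and the fibrils.

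Total counts were 8687598 and 6726969 in si3m replicates 1 and 2, against 3924434 and 3835750 in siNT replicates 1 and 2. Eif3m, the target of the siRNA, had 138 and 191 CPM in si3m, against 532 and 451 CPM in siNT (log2 fold change -1.59, SE 0.11, edgeR adjusted p = 3.41e-08), a call lost only with robust quasi-likelihood (adjusted p = 0.0522). The label of the cells was checked with marker genes. Calls were common among all 12672 rows tested, of which 14.0% were called higher and 13.9% lower. Among tested rows with at least 50 counts in 2 libraries these shares were 17.4% and 17.3%. Of 13 cardiomyocyte markers, 10 had too few counts to be tested, Tnnt2 was higher in si3m, and Pln and Ttn were lower. Tnni3 and Nppa had 0 counts in all 4 libraries, and the sum of the list was 50.4 and 59.7 CPM in si3m, against 75.2 and 68.6 CPM in siNT. Of 12 fibroblast markers other than collagens, 6 had too few counts to be tested, among them Pdgfra, Fbln1, Fbln2 and Lum. The 5 that met the count minimum in both groups, Thy1, Postn, Vim, S100a4 and Mfap5, were higher in si3m. Dcn, with 0 counts in both siNT libraries, met it through si3m alone, so its call is not counted, while Tcf21 and Fap had 0 counts in all libraries. That list summed to 2293 and 2280 CPM in si3m, against 1469 and 1491 CPM in siNT. The 7 smooth muscle and pericyte markers summed to 3972 and 4042 CPM in si3m, against 3599 and 3587 CPM in siNT. Among them 1 was called higher, Acta2, with a mean of 2991 CPM in si3m and 2351 CPM in siNT. The 2 called lower were Tagln (639 CPM in si3m, 749 CPM in siNT) and Pdgfrb (356 CPM in si3m, 467 CPM in siNT). The 7 endothelial markers summed to between 3.48 and 5.59 CPM in every library, with Cdh5 and Emcn at 0 throughout, and the 6 macrophage markers to 15.8 and 16.4 CPM in si3m, against 30.9 and 34.6 CPM in siNT. What part such differences in cell makeup had in the collagen values was not tested, and in bulk samples fewer cells of a type and fewer footprints per cell cannot be told apart.

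Collagen footprints took a larger share of the si3m libraries. The 44 rows together held 1.29% and 1.25% of all counts in si3m, against 0.878% and 0.866% in siNT, a share 1.45 times as large. Such a share is itself a scaling by the total count, and it depends on what else the library holds. With TMM scaling the sum was 13069 ± 113 CPM in si3m and 8505 ± 99.1 CPM in siNT (SD, n = 2 each), or 1.54 times as large. Most of it came from the fibrillar class, which summed to 11959 ± 123 CPM in si3m and 7538 ± 44.0 CPM in siNT. The composition also differed: rows of types I, III and V made up 90.8% and 90.6% of the collagen counts in si3m, against 86.8% and 87.7% in siNT, while Col4a1, Col4a2 and Col4a5 together made up 3.76% and 3.72% in si3m, against 7.15% and 6.54% in siNT. Neither share overlapped between the groups, but nor did the CPM of 63.9% of all single rows tested.

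Of the 44 rows, 19 had enough counts to be tested, and each of the 19 met the count minimum in both groups. In si3m 6 were higher and 4 lower, and 9 did not pass the threshold of 0.05 for the Benjamini-Hochberg adjusted p of edgeR's quasi-likelihood test. Among all 12672 rows tested, 14.0% were called higher and 13.9% lower, or 27.8% in either direction, whereas 31.6% of the 19 collagens were higher and 21.1% lower. Well counted rows were called more often: among the 9509 tested rows with at least 50 counts in 2 libraries, 17.4% were higher and 17.3% lower, or 34.7% in either direction, and 15 collagens, including all 10 that were called, were of this kind. With total count scaling the split over all rows was 1428 higher and 2217 lower in place of 1771 and 1757, while for collagens it was again 6 and 4. The median log2 fold change of the 19 was 0.44, beside 0.02 over all rows tested. This median was not stable, at 0.29 without siNT replicate 1, 0.25 without siNT replicate 2 and 0.15 without si3m replicate 2, the middle value with all libraries being that of Col18a1, a row of few counts. For 10 of the 19 collagens both si3m values lay above both siNT values, and for 5 they lay below. Over all tested rows these shares were 32.6% and 31.3%, together 63.9%.

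**Figure D1:**
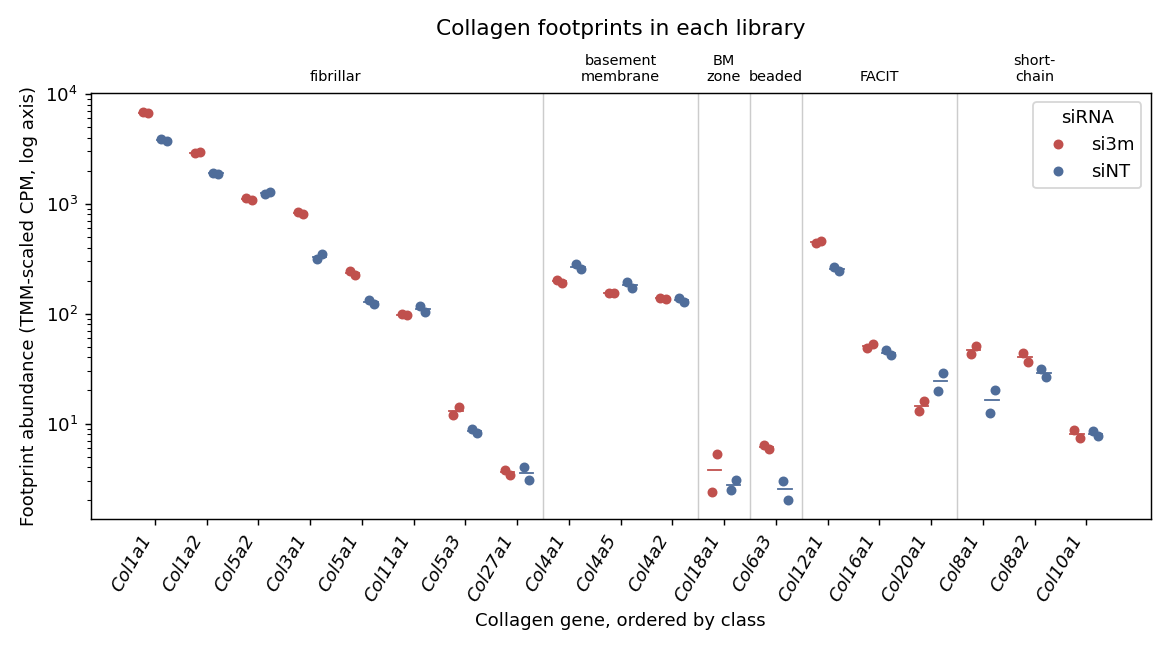
Footprint abundance (TMM-scaled CPM, log axis) of the 19 tested collagen genes, ordered by class, with a point for each library and a short line for the mean of the 2 libraries of a group (si3m left, siNT right). Col1a1, Col1a2, Col3a1, Col5a1, Col12a1 and Col8a1 lie higher in si3m, while Col5a2, Col4a1, Col4a5 and Col20a1 lie lower.

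Among fibrillar collagens the chains of types I and III rose. Col1a1, which codes for the more abundant chain of type I collagen, had deposited counts of 57889 and 43250 in si3m, against 15474 and 14750 in siNT. After scaling it had 6817 and 6690 CPM in si3m, against 3852 and 3747 CPM in siNT. The replicates lay close together and the groups far apart, and the fold change was 1.78 (log2 0.83, SE 0.023, edgeR adjusted p = 3.39e-13). Col1a2, the partner chain of type I, had 2896 and 2937 CPM in si3m, against 1897 and 1883 CPM in siNT (1.54-fold, log2 0.63, SE 0.030, adjusted p = 2.92e-10). Col3a1, whose product forms thinner, more compliant fibrils together with type I, had 843 and 812 CPM in si3m, against 315 and 347 CPM in siNT. Its rise of 2.50-fold (log2 1.32, SE 0.056, edgeR adjusted p = 8.73e-11) was the largest among the tested fibrillar rows. All 3 calls held in each of the 16 alternative analyses.

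The chains of type V went in opposite directions. Col5a1, the chain that carries most of the control over fibril width and is mutated in classical Ehlers-Danlos syndrome, had 243 and 225 CPM in si3m, against 132 and 122 CPM in siNT (1.84-fold, log2 0.88, SE 0.075, edgeR adjusted p = 2.83e-07). Col5a2, the partner chain with which it folds into the common form of type V, had 1132 and 1091 CPM in si3m, against 1240 and 1292 CPM in siNT. The groups did not overlap, and the fall was small (log2 -0.19, SE 0.041, adjusted p = 0.00261). Col5a3, the least widespread chain of the type, had 12.0 and 14.2 CPM in si3m, against 8.96 and 8.13 CPM in siNT, and did not pass (log2 0.61, SE 0.29, adjusted p = 0.130). The calls for Col5a1 and Col5a2 held in each of the 16 alternatives.

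The stretches of DNA just before the annotated starts of these 2 genes are shown because the chains share a trimer and moved apart. They were read from RefSeq promoter windows of the rat assembly GRCr8, which is not the build of the count files (rn6) and was matched by gene symbol. Each line holds the 120 bases up to the start, and capitals would mark the TATA box TATAAA, the CCAAT box CCAAT or the GC box GGGCGG, searched on both strands.
Col5a1 (chr3:31606760-31606879, plus strand): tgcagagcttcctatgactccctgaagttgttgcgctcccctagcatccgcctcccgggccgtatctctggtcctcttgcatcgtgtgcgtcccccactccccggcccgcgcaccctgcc
Col5a2 (chr9:55090152-55090271, minus strand): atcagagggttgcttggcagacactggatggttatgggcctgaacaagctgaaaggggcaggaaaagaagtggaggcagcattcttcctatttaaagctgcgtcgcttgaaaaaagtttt
Neither stretch holds any of the 3 motifs. In the longer window of 250 bases before the start, Col5a1 has 1 GC box and Col5a2 none, while 32.4% of 27457 RefSeq promoter windows hold a GC box, 34.3% a CCAAT box and 13.1% a TATA box. Of the 38 such windows of collagen genes, 20 hold a GC box, 12 a CCAAT box and 4 a TATA box. Col24a1 and Col6a5 enter this count with several windows each, while each gene entered the 27457 with a single window.

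The minor fibrillar chains moved little or could not be measured. Col11a1, which like type V starts fibril assembly and is best known from cartilage, had 98.9 and 97.1 CPM in si3m, against 118 and 103 CPM in siNT, and did not pass (log2 -0.17, SE 0.098, edgeR adjusted p = 0.222). Col27a1 had deposited counts of 32 and 22 in si3m, against 16 and 12 in siNT, and its fitted log2 of 0.03 (SE 0.52) turned negative with total count scaling (-0.05), without siNT replicate 2 (-0.14) and without si3m replicate 1 (-0.04). Its gene contains the microRNA gene Mir455, which has a row of its own with up to 56 counts in a library, more than Col27a1 itself. Of the other fibrillar rows, Col2a1 and Col11a2 had at most 8 counts in a library and Col24a1 at most 6. Over the 8 fibrillar rows tested, 4 rose, 1 fell and 3 did not pass, with a median log2 of 0.62. In either direction 27.8% of all tested rows and 34.7% of the well counted ones changed.

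Of the basement membrane collagens, Col4a1 fell, Col4a5 fell with a call that depended on the libraries, and Col4a2 did not pass. Col4a1 had 203 and 191 CPM in si3m, against 281 and 253 CPM in siNT. The groups did not overlap, and the fall of 1.36-fold (log2 -0.44, SE 0.067, edgeR adjusted p = 1.30e-04) held in each of the 16 alternatives. Its usual partner chain Col4a2 had 138 and 137 CPM in si3m, against 138 and 128 CPM in siNT. These values overlapped, and the gene did not pass (log2 0.05, SE 0.081, adjusted p = 0.679), turning to -0.03 with total count scaling. Col4a5, a chain of the specialised basement membranes of kidney and smooth muscle that is mutated in Alport syndrome, had 153 and 155 CPM in si3m, against 194 and 171 CPM in siNT (log2 -0.24, SE 0.077, adjusted p = 0.0278). That call was lost without siNT replicate 1 (log2 -0.14, adjusted p = 0.279), without si3m replicate 1 (0.119), without si3m replicate 2 (0.0683) and in DESeq2 (0.0820). Col4a3 and Col4a6 had at most 2 counts in a library and Col4a4 had 0 in all 4. Of the 3 rows tested none rose and 2 fell, with a median log2 of -0.24, where 14.0% of all tested rows rose and 13.9% fell. The class summed to 489 ± 7.70 CPM in si3m and 582 ± 43.7 CPM in siNT (SD, n = 2 each).

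Col4a1 and Col4a2 are read away from each other from a shared promoter, a layout that all type IV genes have. In the GRCr8 annotation their starts lie 77 bases apart on chromosome 16, and the 76 bases between them are shown because 1 of the 2 chains fell and the other did not pass. The line reads on the Col4a1 strand, with Col4a2 leaving from its left end and Col4a1 from its right end, and capitals mark the GC box, here on the opposite strand.
Col4a2 to Col4a1 (chr16:84885521-84885596, plus strand): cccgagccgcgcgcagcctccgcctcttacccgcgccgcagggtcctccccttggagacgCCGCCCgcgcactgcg
This interval holds 1 GC box and no CCAAT or TATA box as spelled above.

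Ratios of counts within a library need no scaling. They come from the same counts as the calls above, so they restate those differences and add no separate support. The count ratio of Col5a1 to Col5a2 was 0.215 and 0.206 in si3m, against 0.106 and 0.0944 in siNT, so it was 2.10 times as high in si3m. The ratio of Col4a1 to Col4a2 was 1.47 and 1.39 in si3m, against 2.04 and 1.99 in siNT. For type I, Col1a1 over Col1a2 was 2.35 and 2.28 in si3m, against 2.03 and 1.99 in siNT. Col3a1 over Col1a1 was 0.124 and 0.121 in si3m, against 0.0818 and 0.0925 in siNT, and Col5a2 over Col1a1 was 0.166 and 0.163 in si3m, against 0.322 and 0.345 in siNT. These 5 ratios did not overlap between the groups. Nor did the CPM of 63.9% of all rows tested, and no such share was computed for ratios. Col5a1 over Col1a1, in contrast, was 0.0357 and 0.0336 in si3m, against 0.0343 and 0.0325 in siNT, values that overlapped. Chain length enters each ratio, so it says nothing of the number of chains made, and the ratios are given as values per library, without a test. An exact permutation test of 2 libraries against 2 could not go below 0.33, two-sided.

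**Figure D2:**
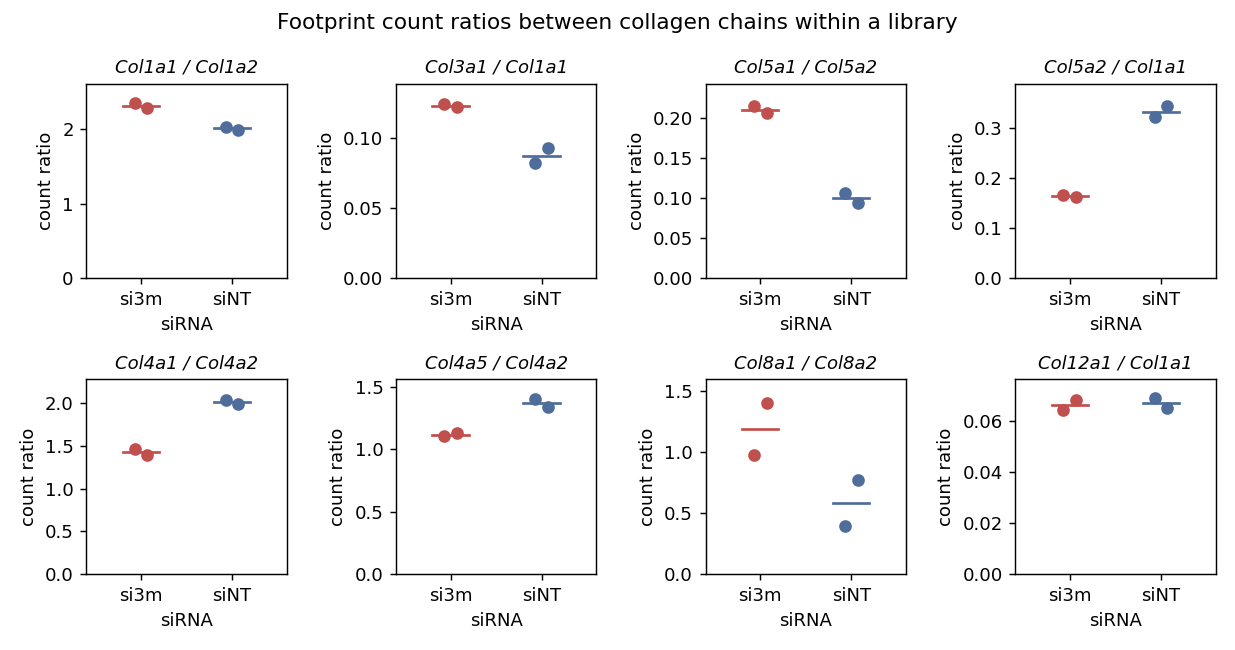
Ratio of deposited counts between collagen chains in each library (points) with the group mean (line), si3m left and siNT right, each vertical axis starting at 0. Col5a1 over Col5a2 and Col3a1 over Col1a1 lie higher in si3m, Col4a1 over Col4a2 and Col5a2 over Col1a1 lie lower, and Col12a1 over Col1a1 overlaps.

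Of the collagens of the basement membrane zone, Col18a1, whose end fragment is endostatin, had deposited counts of 20 and 34 in si3m, against 10 and 12 in siNT, and overlapped after scaling (log2 0.44, SE 0.59, edgeR adjusted p = 0.633), turning to -0.22 without si3m replicate 2. Col15a1 had at most 2 counts in a library, and Col7a1, the anchoring fibril of the skin, at most 4.

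Beaded-filament collagen was barely seen. Col6a1 and Col6a2, which code for 2 of the 3 chains of the usual type VI molecule, had deposited counts of 4 and 0, and 10 and 6, in the si3m libraries, against 0 and 2, and 4 and 0, in the siNT libraries. Where a library had no count, counting error alone allows 6 deposited counts (3 fragments). That limit was 0.707 and 0.928 CPM in si3m replicates 1 and 2, against 1.49 and 1.52 CPM in siNT replicates 1 and 2, so a difference in these rows was not detectable at this depth. Col6a3, the large remaining chain, had counts of 54 and 38 in si3m, against 12 and 8 in siNT, or 6.36 and 5.88 CPM against 2.99 and 2.03 CPM. The groups did not overlap, and the row just missed the threshold (log2 1.28, SE 0.48, edgeR adjusted p = 0.0604). It passed without siNT replicate 1 (adjusted p = 0.0396), with no low-count filter (0.0405) and with counts halved to fragments (0.0484). It did not pass in the other 11 alternatives that tested it, with adjusted p up to 0.304 without si3m replicate 1, and DESeq2 gave it no adjusted p. Col6a4, Col6a5 and Col6a6 had at most 6 counts in a library. No beaded-filament row passed edgeR's test. The 1 row tested had an unadjusted p below 0.05 in it, as did 4883 of all 12672 rows tested. DESeq2 could not call that row, having given it no adjusted p.

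The FACIT class held 1 rise and 1 fall. Col12a1, whose product coats type I fibrils and is made in load-bearing tissue, had 438 and 456 CPM in si3m, against 266 and 243 CPM in siNT (1.76-fold, log2 0.81, SE 0.061, edgeR adjusted p = 7.08e-08), a call that held in all 16 alternatives. Its count ratio to Col1a1 was 0.0643 and 0.0681 in si3m, against 0.0690 and 0.0648 in siNT, so the 2 genes could not be told apart in their change. Col16a1, a FACIT chain found near cells and small fibrils, had 48.8 and 53.2 CPM in si3m, against 46.3 and 42.2 CPM in siNT, and did not pass (log2 0.20, SE 0.15, adjusted p = 0.334). Col20a1 had 12.95 and 16.1 CPM in si3m, against 19.9 and 29.0 CPM in siNT. The groups did not overlap although the siNT libraries lay far apart, and the fall (log2 -0.76, SE 0.25, adjusted p = 0.0330) was lost without siNT replicate 2 (log2 -0.46, adjusted p = 0.216), without si3m replicate 1 (0.217) and in DESeq2 (0.0733). Col9a1, Col9a2 and Col9a3, the chains of cartilage type IX, had 0 counts in all libraries, Col14a1 and Col22a1 at most 2 and Col19a1 at most 6. The median log2 of the 3 FACIT rows tested was 0.20, and the rise and the fall stand beside 14.0% and 13.9% of all tested rows.

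Short-chain network collagens form hexagonal lattices. Col8a1, made by vascular and corneal cells, had deposited counts of 364 and 330 in si3m, against 50 and 80 in siNT. After scaling that was 42.9 and 51.0 CPM in si3m, against 12.4 and 20.3 CPM in siNT, and the rise of 2.86-fold (log2 1.52, SE 0.22, edgeR adjusted p = 8.44e-05), the largest among the collagens tested, held in all 16 alternatives, with log2 values from 1.21 to 1.91. Col8a2, its partner chain, had 43.8 and 36.5 CPM in si3m, against 31.4 and 26.4 CPM in siNT, and just missed the threshold (log2 0.48, SE 0.18, adjusted p = 0.0596). It passed in 6 of the 16 alternatives, with adjusted p from 0.0192 to 0.404. The count ratio of Col8a1 to Col8a2 was 0.978 and 1.40 in si3m, against 0.397 and 0.769 in siNT, the libraries of each group lying farther apart than the nearest libraries of the 2 groups. Col10a1, of growth-plate cartilage, had counts of 74 and 48 in si3m, against 34 and 30 in siNT, and a log2 of 0.01 (SE 0.33, adjusted p = 0.988) whose sign changed in 7 alternatives, down to -0.10 without si3m replicate 1.

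The starts of the type VIII genes are shown because Col8a1 had the largest rise. Each line again holds the 120 bases before the GRCr8 start, with capitals on GC boxes, which in Col8a2 overlap once.
Col8a1 (chr11:56246662-56246781, plus strand): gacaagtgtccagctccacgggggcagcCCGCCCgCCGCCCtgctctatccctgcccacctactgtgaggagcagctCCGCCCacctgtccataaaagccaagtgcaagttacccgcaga
Col8a2 (chr5:143870649-143870768, plus strand): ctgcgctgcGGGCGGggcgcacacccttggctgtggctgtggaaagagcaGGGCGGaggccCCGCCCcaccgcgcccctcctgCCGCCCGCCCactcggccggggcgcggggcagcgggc
In the full 250 bases Col8a1 holds 4 GC boxes and Col8a2 5, and neither holds a CCAAT or TATA box. A match is a description of the letters and not of a bound site.

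**Figure D3:**
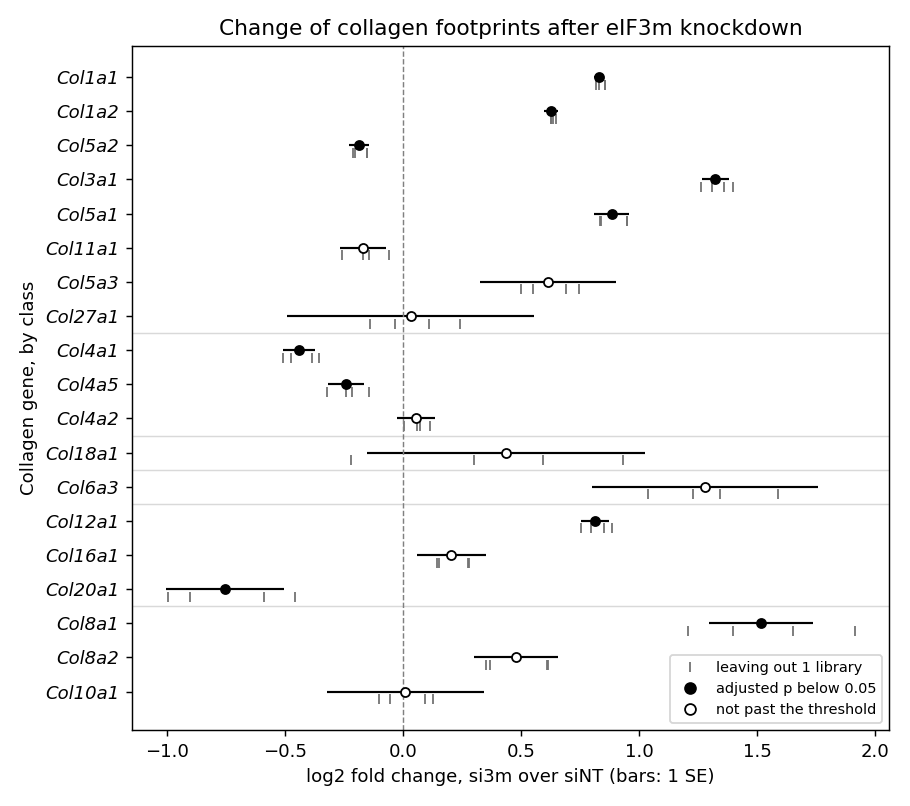
The log2 fold change of each tested collagen, si3m over siNT, by class (same order as the classes in the plot of abundance), with bars of 1 SE, filled points for an adjusted p below 0.05 and grey ticks for the value without each of the 4 libraries in turn. The ticks of Col1a1, Col1a2, Col3a1, Col5a1, Col12a1 and Col8a1 stay above 0 and those of Col4a1, Col4a5, Col5a2 and Col20a1 below it. A steady sign is not particular to called rows. Among rows not called, the ticks of Col5a3, Col16a1, Col6a3, Col8a2 and Col4a2 also stay above 0 and those of Col11a1 below it.

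Low rows made up most of the family, as they did of all rows. In every library 24 of the 44 rows had fewer than 10 counts, as did 16885 of all 31038 rows. Of the 24, 10 had 0 in all 4 libraries, as did 11252 of all rows. These 10 were Col4a4, Col6a4, Col9a1, Col9a2, Col9a3, Col13a1, Col23a1, Col25a1, Col26a1 and Col28a1. By class the 24 low rows were 3 of 11 fibrillar rows, 3 of 6 basement membrane rows and 2 of 3 rows of the basement membrane zone. They also took in 4 of 6 beaded-filament rows, 6 of 9 FACIT rows, all 4 transmembrane rows (Col17a1 with at most 8 counts) and both of the other rows. No short-chain row was among them. Col6a2, with 10 counts in its highest library, was the only untested row above that limit. Gene overlap limits a few rows further. In the GRCr8 annotation 13 of the 44 genes overlap a gene with its own row, including Col1a1 with Sgca (at most 218 counts), Col10a1 with Nt5dc1 (at most 366), Col20a1 with Chrna4 (at most 4) and Col6a4, Col6a5 and Col6a6 with Rpl29 (at most 174). The strand setting of the counting is not given in the sources used here, so reads in such overlaps cannot be assigned with certainty.

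Genes that fold, modify and export collagen moved less uniformly. Of 24 members of this list that met the count minimum in both groups, 8 rose, 3 fell and 13 did not pass. Their median log2 was 0.03, beside 0.01 over all rows that met it in both groups. Larp6 met it through siNT alone and is not counted. Over all tested rows 14.0% rose and 13.9% fell. Ppib, a proline isomerase that speeds triple helix folding, rose 2.08-fold, with 396 ± 20.6 CPM in si3m and 190 ± 16.6 CPM in siNT (SD, n = 2 each; edgeR adjusted p = 1.31e-08). The prolyl hydroxylase subunits P4ha2 and P4ha3 rose 1.63-fold and 1.995-fold, while P4ha1 had a log2 of -0.01 and did not pass. Plod3, which hydroxylates and glycosylates lysines of collagen, fell 1.68-fold, with 90.8 ± 3.22 CPM in si3m and 153 ± 5.59 CPM in siNT (adjusted p = 7.57e-06). Serpinh1, the collagen chaperone named above and outside the rule for named genes, had 1241 ± 5.78 CPM in si3m and 1261 ± 44.0 CPM in siNT and did not pass (log2 -0.02, SE 0.040, adjusted p = 0.712).

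Enzymes that trim and crosslink collagen outside the cell were mostly higher, with 7 of the 10 members that met the count minimum in both groups rising and 3 not passing, where 14.0% of all tested rows rose. Bmp1, the protease that removes the C-terminal propeptide of fibrillar collagens, rose 1.52-fold (edgeR adjusted p = 0.00166). The lysyl oxidases Loxl2 and Loxl3 rose 2.02-fold (adjusted p = 1.19e-04) and 1.52-fold (adjusted p = 0.00114). Tgm2, a transglutaminase, had deposited counts of 8 and 6 in si3m, against 26 and 22 in siNT, and met the count minimum through siNT alone, so its lower value (log2 -2.66, SE 0.60, adjusted p = 0.00354) is not counted.

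Receptors of collagen split by chain. Of 6 that met the count minimum in both groups, 3 rose and 2 fell (median log2 0.30). Over all tested rows 27.8% changed in either direction, as did 34.7% of the well counted ones. Itga10 met the minimum through si3m alone and is not counted. Itga11, an integrin chain for fibrillar collagen in fibroblasts, rose 1.76-fold, with 104 ± 4.91 CPM in si3m and 58.8 ± 9.21 CPM in siNT, and Mrc2, which takes up collagen for degradation, rose 1.41-fold (SD, n = 2 each; edgeR adjusted p = 1.19e-04 and 2.12e-04). Itgb1, the beta chain that all collagen-binding integrins share, fell 1.85-fold, with 3393 ± 38.5 CPM in si3m and 6291 ± 53.6 CPM in siNT (adjusted p = 1.08e-13). Itga1, a chain for basement membrane collagen, fell 1.54-fold (adjusted p = 0.00406). Among proteins that bind fibrils, 6 members met the count minimum in both groups, of which 4 were higher and 2 lower. Dcn and Fmod met it through si3m alone, where they are high, so their calls are not counted. Postn and Sparc rose 1.88-fold and 1.31-fold, Fbn1 rose 1.34-fold, and Bgn fell 1.22-fold (adjusted p between 1.13e-09 and 6.45e-05).

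**Figure D4:**
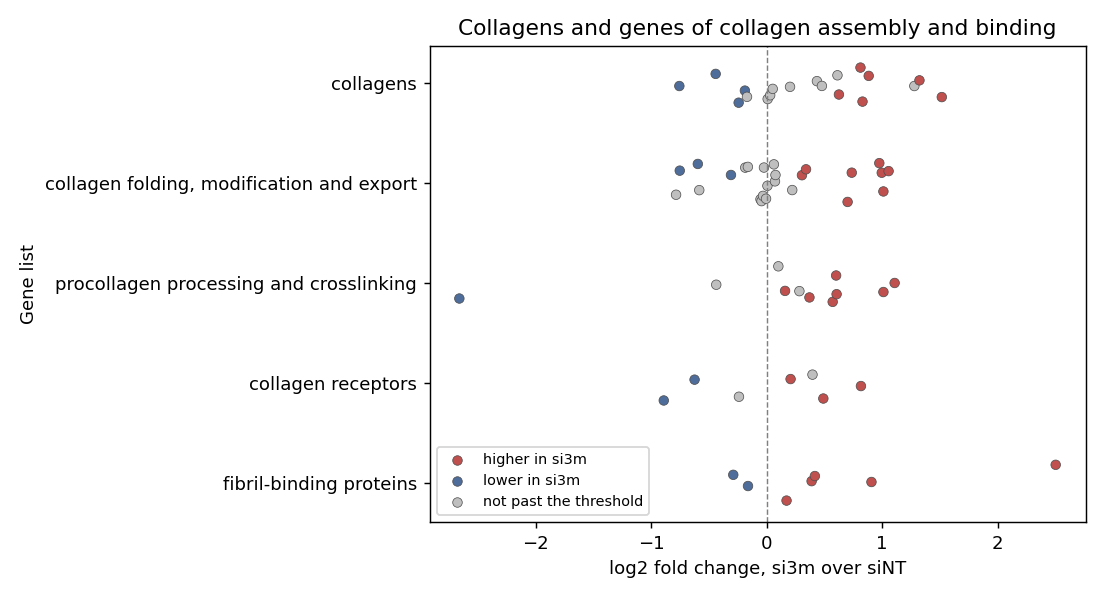
The log2 fold change, si3m over siNT, of each tested gene among the collagens and in 4 lists of genes of collagen assembly and binding, coloured by the edgeR call (vertical scatter within a list has no meaning). Dcn is left out because it had 0 counts in both siNT libraries. Fmod and Tgm2 are drawn and coloured, although they met the count minimum only through the group where they are high and their calls are not counted. Members of every list lie on both sides of 0.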

How the data were processed

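Each deposited file gives a whole-number count per gene row, with no normalization by the authors. Per the submitters' processing notes, Trimmomatic 0.40, HISAT2 2.2.1, featureCounts, limma, DESeq2 and build rn6 were used; their roles, the annotation and the strand setting are not given in the sources used. Between 94.9% and 97.3% of the counts above 0 were even, so a fragment was taken as 2 counts.

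All rows were fitted with edgeR 4.0.16 in R 4.3.3: filterByExpr (minimum count 10), TMM scaling and the two-sided quasi-likelihood test, with p-values adjusted by Benjamini-Hochberg over 12672 rows and a threshold of 0.05. The SE is the log2 fold change divided by the square root of the F statistic. Replicate number was not a block: the deviations of same-numbered libraries had a correlation of -0.02. Replicates differed by more than counting noise (median chi-square 1.40 times in siNT and 1.48 times in si3m) and were kept apart. The 16 alternatives included DESeq2 1.42.0, other scalings and filters, thinning to equal depth and leaving out each library.

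Members, classes and gene lists were chosen with earlier results of these data known. Every member is accounted for; from each pathway list up to 4 tested genes of smallest p were named. Of the list symbols, Ctage5, Pcolce2 and Tnxb matched no row. Matching by symbol gave 38 RefSeq promoter windows of collagen genes, with several each for Col24a1 and Col6a5. Some of the 44 collagens had no window. Not matched among those called were Col1a1, Col3a1 and Col12a1.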

Additional observations from a re-analysis of the deposited data

How the results depend on the processing

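Over the 16 alternatives, between 6 and 8 collagen rows were higher in si3m, and 5 fibrillar rows changed in each. The 4 lower rows became 2 in DESeq2 and 2 to 3 when 1 library was left out. In DESeq2 the changed basement membrane and FACIT rows became 1 each, and without 1 library each count was 1 to 2. For beaded filaments, where none passed, the count became 1 with no low-count filter and 1 with counts halved to fragments, and 0 to 1 without 1 library. Where a library was left out, the lone library of its group was assumed to vary like the pair of the other group. Signs turned, in rows never called, for Col4a2 (-0.028) and Col27a1 (-0.049) with total count scaling; without 1 library, Col27a1 ranged from -0.14 to 0.24, Col18a1 from -0.22 to 0.93 and Col10a1 from -0.10 to 0.13. Col10a1 was also at -9.0e-05 with DESeq2 size factors, -0.070 with total count scaling, -0.015 with thinned counts, -0.0018 in the DESeq2 test and -0.0054 with protein-coding rows alone. The cause was not tested. Replicate numbers are not shown to pair the libraries; with the replicate block 7 collagen rows were higher and 4 lower. Scaling without collagen rows and the fit to protein-coding rows were chosen after seeing the data; both gave 6 higher and 4 lower. Depth limits the 24 rows under 10 counts, which were not tested.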
